A study of Mus musculus with 3 samples.

Results

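The long noncoding RNAs Malat1, Neat1, Meg3, Snhg11, Rmst and Miat were followed across the cell clusters and libraries of a single-cell RNA sequencing experiment on dissociated mouse retina. They were 6 of the 18545 genes in the matrix. They were picked from their levels by cluster and library in these same data, so the levels and the ratios given here describe the libraries and carry no test. The 3 libraries came from dark-reared C57BL/6J-background mice aged 8 weeks. The WT library held wild-type retinas on control chow. The rd10-vehicle and rd10-TMB libraries held retinas of rd10 mice, which carry a point mutation in the rod phosphodiesterase gene Pde6b, on control chow or on chow with tamsulosin, metoprolol and bromocriptine (TMB). Each library was a single pool, of 4 mice per the labels and of fewer for rd10 per the methods of the study. The rd10 pools were female and the WT pool held both sexes, so genotype and sex cannot be told apart in a plain comparison. With 1 library per group, n = 1 throughout, and all intervals cover counting error at 95% only.

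Long noncoding RNAs are transcribed and processed like messenger RNAs but are not translated into known proteins, and many remain in the nucleus. Malat1 sits in nuclear speckles, where splicing factors gather, and Neat1 is the scaffold of paraspeckles, nuclear bodies that hold back RNAs and RNA-binding proteins. Meg3 is read from the maternal copy of the imprinted Dlk1-Dio3 domain. Snhg11 is a host gene of small nucleolar RNAs that is used in neurons, Rmst is a neural RNA that binds the transcription factor Sox2, and Miat, also called Gomafu, is a nuclear RNA of neurons that was mapped in developing retina. In the retina, Müller glia span the tissue and support its neurons, amacrine and bipolar cells are interneurons, and rods and cones detect light.

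In GENCODE annotation of GRCm38 (mm10), Malat1 lay on the minus strand of chr19:5795690-5802672 and Neat1 on the same strand at chr19:5824708-5845478, each with a single-exon longest transcript, of 6983 and 20771 bases. Meg3 lay at chr12:109541001-109571726 on the plus strand, Snhg11 at chr2:158375638-158386145 on the plus strand, Rmst at chr10:92071037-92165170 on the minus strand and Miat at chr5:112213228-112229395 on the minus strand. Snhg11 was typed as protein coding by GENCODE and as a long noncoding RNA by RefSeq. Antisense long noncoding genes overlapped Meg3 (Gm26906), Rmst (Gm26700) and Miat (Gm26953), and reads of such pairs are uncertain where the counting did not use strand.

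The libraries were primed from poly(A), so poly(A) tails and A-rich stretches bear on which RNAs are caught. The last 60 bases of annotated transcripts are shown for that reason, 5′ to 3′, with the polyadenylation signals AATAAA or ATTAAA in capitals.
Malat1-201: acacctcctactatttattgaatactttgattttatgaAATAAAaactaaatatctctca
Neat1-201: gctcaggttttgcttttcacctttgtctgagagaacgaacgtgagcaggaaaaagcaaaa
Neat1-202: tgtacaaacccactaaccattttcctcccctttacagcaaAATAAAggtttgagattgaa
Meg3-209: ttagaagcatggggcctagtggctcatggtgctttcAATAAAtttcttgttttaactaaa
Rmst-210: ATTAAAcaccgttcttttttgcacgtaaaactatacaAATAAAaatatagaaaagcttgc
Miat-205: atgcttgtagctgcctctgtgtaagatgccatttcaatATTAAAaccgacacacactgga
The 20771-base Neat1-201 was the only one of these transcripts with neither hexamer here, while the 3004-base Neat1-202 had AATAAA. Over all 9101 annotated lincRNA transcripts, 39.5% held a hexamer in their last 50 bases.

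Malat1 and the long form of Neat1 are known to end at a cleavage next to a genome-encoded A-rich stretch, which then folds into a triple helix instead of receiving a poly(A) tail. In Malat1-201 a run of 12 A, in capitals in bases 6650 to 6709 of the transcript, started at base 6674 and ended 298 bases before the annotated end.
Malat1-201 A run: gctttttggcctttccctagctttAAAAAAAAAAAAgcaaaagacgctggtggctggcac
The last 50 bases of Neat1-201 and the last 600 of Malat1-201 shared the 11-base string AAAAAGCAAAA. A run of at least 12 A was found in 3.59% of the lincRNA transcripts, and Meg3-209 held 3 of them, the longest of 16 bases. Which of these sites primed the UMIs was not tested.

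Meg3 and Rmst also contain miRNA genes within their spans. RefSeq gave 7 mature miRNAs in these 2 genes, of which 3 main arms are shown with the seed, bases 2 to 8, in capitals.
miR-770-5p (Meg3): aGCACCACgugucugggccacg
miR-135a-5p (Rmst): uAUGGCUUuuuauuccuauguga
miR-1251-5p (Rmst): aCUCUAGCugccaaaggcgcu
The 3 seeds differ, and mature miRNAs have no poly(A) tail and were not measured in these libraries. A Meg3 promoter is shown because the level of Meg3 differed widely between clusters. RefSeq gives 2 promoters of Meg3, and the one at the annotated start of the gene lies at chr12:109540746-109541045 of GRCm38.p6 on the plus strand, from 250 bases before the start to 50 after, with matches to TGACGTCA, CCAAT and TATAAA on either strand in capitals, where overlapping matches run together.
Meg3 promoter: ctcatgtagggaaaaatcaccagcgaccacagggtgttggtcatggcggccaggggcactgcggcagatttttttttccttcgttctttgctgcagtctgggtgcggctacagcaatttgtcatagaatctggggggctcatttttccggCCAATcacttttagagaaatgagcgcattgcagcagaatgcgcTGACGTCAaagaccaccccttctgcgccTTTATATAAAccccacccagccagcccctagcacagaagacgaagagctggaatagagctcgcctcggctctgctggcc
These motifs were found in 1.79%, 37.4% and 13.6% of 32851 RefSeq promoters of the same length. The other Meg3 promoter, at chr12:109545148-109545447, held 0 matches to the motifs searched. A match describes the letters only.

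In all, 15242 cells gave 85078013 UMIs (unique molecular identifiers, each standing for 1 captured molecule). WT had 4478 cells at a median of 3509.5 UMIs, rd10-vehicle 5952 cells at 4811.5 UMIs and rd10-TMB 4812 cells at 4772.5 UMIs. Of 15217 distinct cell barcodes, 25 occurred in more than 1 library. UMIs were summed over the cells of each deposited cluster and library and scaled to a common library total (CPM, the number per 1e+06 UMIs). Clusters are called by markers, with "-like" as their names were rebuilt here. Clusters 6 (led by Igfn1 and Vsx1) and 10 (led by Cck and Sct) were left with their numbers. The endothelial-like cluster 11 had 8 of 9 endothelial markers at least 2-fold above the other cells, and also 9 of 9 pericyte or mural markers. The amacrine-like clusters 5 and 9 held 16.9% of the WT cells, 1.76% of the rd10-vehicle cells and 1.72% of the rd10-TMB cells.

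The abundance of the members in whole libraries spanned a wide range. Malat1 ranked first among all genes, with 4640323 UMIs or 5.45% of all UMIs, and had a UMI in 15227 cells. Meg3 followed with 57056 UMIs, Snhg11 with 29044, Neat1 with 10017, Rmst with 3434 and Miat with 100. Over a whole library, Snhg11 stood at 1220 CPM for WT, 79.0 for rd10-vehicle and 106 for rd10-TMB, and Meg3 at 1686, 371 and 394 CPM. Such sums move with the share of cells of each type, and fewer cells of a type and less RNA per cell cannot be told apart in them. The values below are therefore given within clusters.

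**Figure D1:**
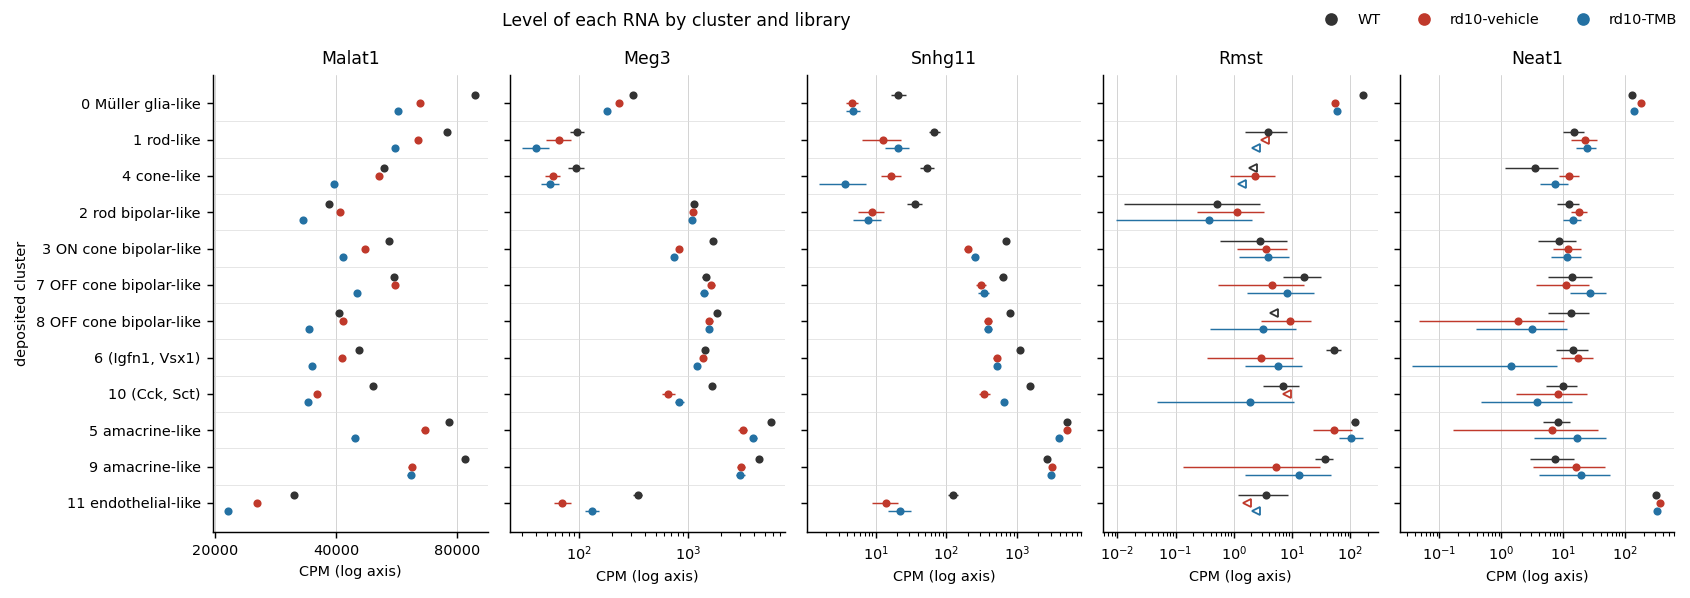
CPM on a log axis for 5 of the RNAs (columns) in 12 deposited clusters (vertical axis) and 3 libraries (colours), with 95% counting intervals and open triangles at the 3-UMI limit where no UMI was found. Malat1 spans a narrow range, and Meg3 and Snhg11 peak in the amacrine-like clusters. Rmst peaks in Müller glia-like cells and amacrine-like cluster 5, and Neat1 in endothelial-like and Müller glia-like cells.

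Ratios between libraries were counted where both libraries had at least 50 cells in the cluster and the gene at least 50 UMIs over both, and a value was called past 1.5-fold. For rd10-vehicle over WT, 37 values of the members were counted, of which 0 were at least 1.5-fold higher and 15 at least 1.5-fold lower. Over all genes and compared clusters, 6.53% were higher and 7.6% lower by that limit. The lower values of the members were 10 of Snhg11, 4 of Meg3 and 1 of Rmst, and those of 1 gene in several clusters share their library and are not independent. For rd10-TMB over rd10-vehicle, 3 of 32 values were higher and 2 lower, against 2.3% and 3.02% of all genes. For rd10-TMB over WT, 1 of 36 was higher and 19 were lower, against 4.8% and 6.89%. The higher one was Neat1 in rod-like cells, on 30 and 27 UMIs, and the lower ones were 10 of Snhg11, 6 of Meg3, 2 of Rmst and 1 of Malat1. These comparisons share libraries, so their values are set side by side only. The median log2 ratio of all genes was -0.01 for rd10-vehicle over WT and -0.01 for rd10-TMB over rd10-vehicle.

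**Figure D2:**
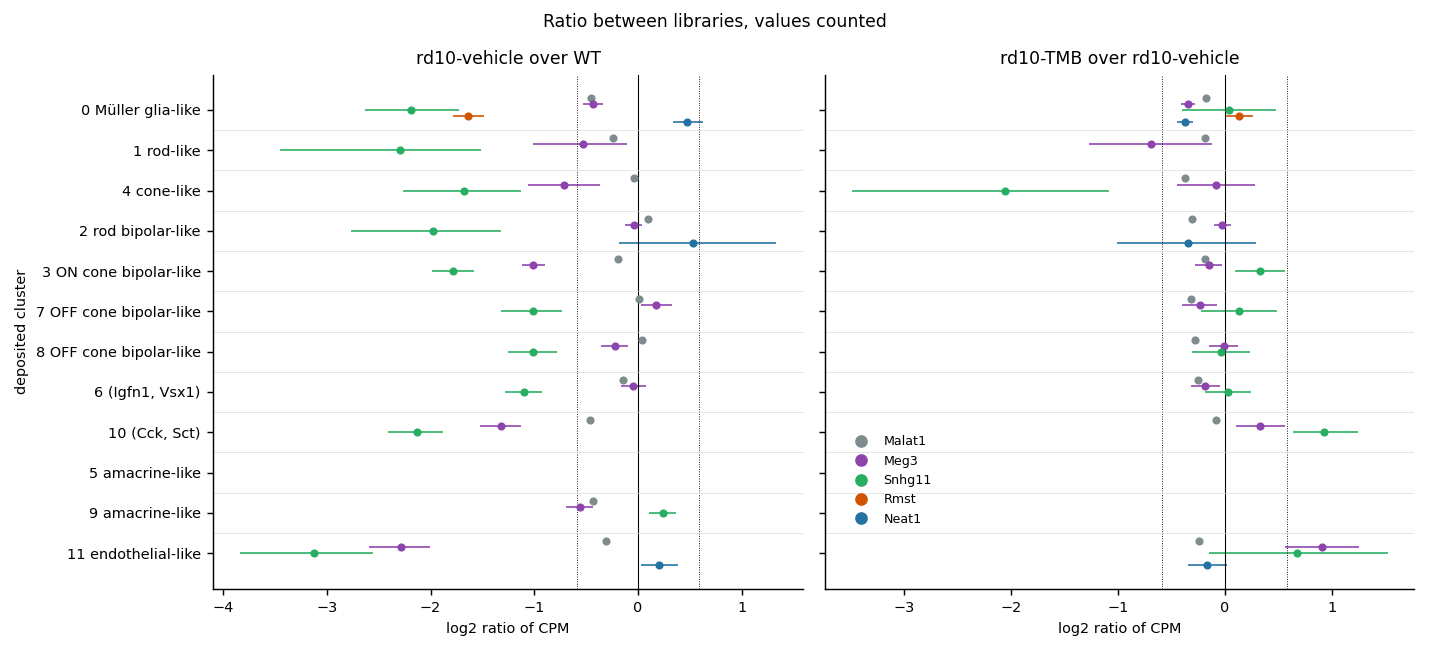
Log2 ratio of CPM (horizontal axis) for rd10-vehicle over WT (left) and rd10-TMB over rd10-vehicle (right) by cluster, with 95% counting intervals and dotted lines at 1.5-fold. Snhg11 lies left of the line in 10 of 11 clusters on the left, and on the right Malat1 lies below 0 in each of 10 clusters. Amacrine-like cluster 5 has under 50 cells in the rd10 libraries and no point.

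Malat1, the speckle RNA, was the least cell type restricted of the members. Among 12 clusters with at least 30 cells in each library, its mean level was 2.69 times higher in the highest, Müller glia-like cells, than in the lowest, endothelial-like cells. Müller glia-like cells had 88690 CPM (88370 to 89011) for WT, 64598 for rd10-vehicle and 57160 for rd10-TMB. Endothelial-like cells had 31363, 25334 and 21496 CPM, and were the only cluster whose range over the libraries stood apart from its neighbour in the order. The other neighbouring clusters overlapped over the libraries, in 10 of the steps of the order.

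In neurons the Malat1 level depended on class. Rod-like cells had 75468 CPM for WT, 63928 for rd10-vehicle and 56079 for rd10-TMB. Rod bipolar-like cells had 38278, 40771 and 33036 CPM, and cone-like cells 52527, 51039 and 39446 CPM. Outside the 12 clusters, horizontal cell-like cells had 118118 CPM in 18 cells of WT, 17570 in 4 of rd10-vehicle and 84264 in 6 of rd10-TMB. Pigment epithelium-like cells had 1887, 7682 and 5751 CPM in 13, 35 and 16 cells. These clusters had few cells, and their levels varied widely over the libraries.

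The rd10-TMB library was below rd10-vehicle for Malat1 in each of the 10 clusters compared, with log2 ratios from -0.37 in cone-like cells to -0.08 in cluster 10 and a median of -0.24. None of these values passed 1.5-fold. Of 2275 genes counted in all 10 clusters, 25 were lower in each, or 1.1%, and Malat1 was one of them. Counting error in Malat1 was small, so these intervals lay below 0 in all 10 clusters, but with 1 library per group a shift of the whole library cannot be told apart from the treatment. For rd10-vehicle over WT the sign was mixed, with 8 of 11 clusters below 0. The log2 ratio was -0.46 in Müller glia-like cells and 0.09 in rod bipolar-like cells.

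The share of each cell's UMIs taken by Malat1 showed the same order in Müller glia-like cells. The median was 8.78% in 530 WT cells, 6.58% in 2492 rd10-vehicle cells and 5.77% in 1748 rd10-TMB cells. The 10th percentile of WT cells in this cluster was 0.673%, against 3.49% in rd10-vehicle, so WT held a tail of cells with little Malat1. In rod-like cells the 10th percentile was 3.68% for WT, 0.283% for rd10-vehicle and 0.224% for rd10-TMB. There the rd10 libraries held such a tail, while the medians were 8.12%, 7.83% and 6.78% in the same order. In 4 classes of total UMIs of Müller glia-like cells, the log2 ratio of rd10-vehicle over WT was -0.57, -0.30, -0.29 and -0.33 from the shallowest to the deepest. By mitochondrial share it was -0.73, -0.38, -0.36 and -0.03 from the lowest to the highest class. The ratio of rd10-TMB over rd10-vehicle was -0.33, -0.11, -0.15 and -0.12 by total UMIs. In rod-like cells the latter changed sign between classes of total UMIs, with -0.24, 0.14, 0.21 and -0.38, and was -0.26, -0.25, -0.06 and -0.20 by mitochondrial share.

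**Figure D3:**
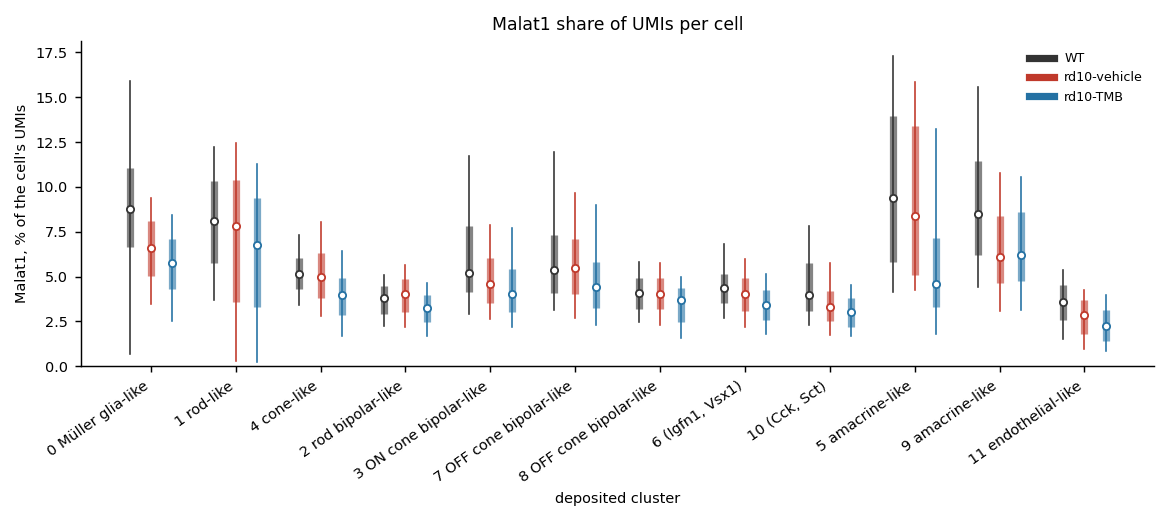
Malat1 share of each cell's UMIs, in % (vertical axis), by cluster and library: points are medians over cells, bars the quartiles and thin lines the 10th to 90th percentiles. The medians in Müller glia-like cells are 8.78%, 6.58% and 5.77% in WT, rd10-vehicle and rd10-TMB, and the spread between cells exceeds the distance between the libraries. Cells are not replicates.

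Neat1, the paraspeckle RNA, followed another pattern, with its highest levels outside the neurons. Endothelial-like cells, whose cluster also held pericyte or mural markers, had 313 CPM (284 to 344) for WT, 361 for rd10-vehicle and 322 for rd10-TMB. Müller glia-like cells had 130 CPM (118 to 142) for WT, 180 (175 to 186) for rd10-vehicle and 139 (134 to 145) for rd10-TMB. These were the 2 highest of the 12 clusters, each apart from the next, and the neuronal clusters had mean levels of 6.06 to 20.3 CPM. In 52 microglia-like cells of rd10-vehicle Neat1 stood at 530 CPM and in 30 of rd10-TMB at 444. In 37 ganglion cell-like cells of WT no Neat1 UMI was found among 680877, which allows up to 4.41 CPM.

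In Müller glia-like cells, the log2 ratio of Neat1 for rd10-vehicle over WT was 0.47 (0.33 to 0.62), under the 1.5-fold limit. For rd10-TMB over rd10-vehicle it was -0.37 (-0.45 to -0.30), and the interval of rd10-TMB overlapped that of WT. Each depth class showed rd10-TMB below rd10-vehicle, at -0.43, -0.43, -0.35 and -0.36. Against WT, rd10-vehicle was higher in 3 classes and lower in the third class, where WT had 224 CPM in 65 cells. By mitochondrial share, the log2 ratio of rd10-vehicle over WT was 0.84, 0.14, -0.29 and 0.69 from the lowest to the highest class. At 1000 UMIs per cell, 11.01% of WT, 13.1% of rd10-vehicle and 10.5% of rd10-TMB Müller glia-like cells had a Neat1 UMI, against 1.47%, 2.25% and 2.25% of rod-like cells. Without thinning the shares were 25.8%, 43.4% and 36.8%, at median depths of 6300, 8593.5 and 9454.5 UMIs, and 2.29%, 3.24% and 3.22% of rod-like cells at 1423, 1406 and 1536.

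Meg3, the imprinted RNA, was highest in the inner neurons. Amacrine-like cluster 5 had 5769 CPM (5667 to 5873) for WT, 3146 (2869 to 3442) for rd10-vehicle and 3921 (3639 to 4219) for rd10-TMB. Amacrine-like cluster 9 had 4472, 3027 and 3004 CPM, with ranges over the libraries that overlapped those of cluster 5. In 37 ganglion cell-like cells of WT Meg3 stood at 5641 CPM. Bipolar-like clusters formed the middle of the order, with 1823, 1557 and 1546 CPM in OFF cone bipolar-like cluster 8 and 1127, 1093 and 1078 in rod bipolar-like cells. Müller glia-like cells had 311, 230 and 181 CPM. Among the 12 clusters the photoreceptors were lowest, with 95.1, 65.1 and 40.4 CPM in rod-like cells and 93.3, 56.9 and 53.8 in cone-like cells. The highest mean of the 12 clusters was 64.0 times the lowest.

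Within clusters, Meg3 was lower in rd10-vehicle than in WT in 10 of 11 clusters, and past 1.5-fold in 4. Those were ON cone bipolar-like cells, at 1665 CPM in WT and 828 in rd10-vehicle (log2 ratio -1.01), cluster 10 (1648 and 657, -1.32), cone-like cells (93.3 and 56.9, -0.71) and endothelial-like cells (343 and 69.8, -2.29). Amacrine markers, a list of 12 genes described with Snhg11, were lower in rd10-vehicle in the same clusters, with sums of 241 and 50.4 CPM in ON cone bipolar-like cells, 1960 and 378 in cluster 10, 73.0 and 32.0 in cone-like and 53.7 and 16.1 in endothelial-like cells. Meg3 UMIs per amacrine marker UMI in WT were 1.13 in amacrine-like cluster 5, close to this at 1.28 in cone-like cells and 0.84 in cluster 10, and higher at 6.90 in ON cone bipolar-like and 6.39 in endothelial-like cells. In endothelial-like cells the neuronal miRNA host genes Mir124a-1hg and Mir124-2hg had log2 ratios of -1.91 and -3.13 for rd10-vehicle over WT. The part of amacrine or other neuronal RNA in the lower Meg3 was not tested. Rod bipolar-like cells stood at -0.04 and OFF cone bipolar-like cluster 7 at 0.17. Set against the 1750 WT cells with an Xist UMI and no Y-linked UMI, the ratio was -0.34 in ON cone bipolar-like cells and -0.09 in cone-like cells, so both fell within 1.5-fold. Only WT cells were filtered this way, and finding an Xist UMI depends on depth, so sex and depth were not separated. With cells of at most 10% mitochondrial UMIs, the Meg3 ratio of ON cone bipolar-like cells was -0.54. By total UMIs, from the shallowest to the deepest of 4 classes, Meg3 in ON cone bipolar-like cells stood at -1.17, -1.78, -0.09 and -0.23, so the value past 1.5-fold lay in the shallower classes. In cone-like cells the sign turned, with -1.29, 0.57, -0.36 and -0.76 by total UMIs and -0.63, -1.76, 1.30 and -2.87 by mitochondrial share, on few UMIs per class. For rd10-TMB over rd10-vehicle, Meg3 was higher past 1.5-fold in endothelial-like cells (131 against 69.8 CPM, log2 ratio 0.91) and lower in rod-like cells (40.4 against 65.1 CPM, -0.69). In rod-like cells these were 51 and 56 UMIs, and with cells of at most 10% mitochondrial UMIs the ratio was -0.14. In endothelial-like cells amacrine markers summed to 21.5 CPM in rd10-TMB and 16.1 in rd10-vehicle, and the neuronal miRNA host genes Mir124a-1hg and Mir124-2hg had log2 ratios of 0.68 and 0.64. Their part in the Meg3 value was not tested.

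Rian, the next maternally read RNA of the Dlk1-Dio3 domain, is a neighbour of Meg3 on the same strand. In ON cone bipolar-like cells Rian had 105 CPM in WT and 32.2 in rd10-vehicle, a log2 ratio of -1.69 (-2.24 to -1.20), and 55.9 in rd10-TMB, 0.79 (0.25 to 1.36) over rd10-vehicle. In the same cells Meg3 was at 746 CPM in rd10-TMB, -0.15 (-0.27 to -0.03) against rd10-vehicle. Amacrine-like clusters 5 and 9 of WT had 285 and 207 CPM of Rian. The part of amacrine RNA in the Rian ratios was not tested. Over 30 cluster and library points, which share libraries and depths, Rian had the profile closest to that of Meg3 among 7041 genes, with a Pearson r of 0.97, followed by Gm42372 (0.97) and Igsf8 (0.96).

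Snhg11, the snoRNA host gene, had the steepest range of the members, as its highest mean was 462 times the lowest. Amacrine-like cluster 5 had 5174 CPM (5077 to 5272) for WT, 5034 (4682 to 5405) for rd10-vehicle and 3883 (3602 to 4179) for rd10-TMB. Cluster 9 had 2644, 3117 and 3011 CPM, and among the 12 clusters these 2 stood apart from each other and from the rest. Outside them, Snhg11 stood at 4187, 4352 and 9261 CPM in 37, 3 and 3 ganglion cell-like cells, and at 4505, 36.2 and 3552 CPM in 18, 4 and 6 horizontal cell-like cells. ON cone bipolar-like cells had 693 CPM for WT, 201 for rd10-vehicle and 253 for rd10-TMB. Cone-like cells had 54.0, 16.8 and 3.68 CPM, and Müller glia-like cells, lowest of the 12 clusters by the mean over the libraries, 21.1, 4.64 and 4.77.

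In each cluster outside the amacrine-like cells, Snhg11 was lower in rd10-vehicle than in WT past 1.5-fold, 10 of 11 clusters in all, while in amacrine-like cluster 9 it was higher, with a log2 ratio of 0.24 (0.11 to 0.37). The ratios ran from -3.12 in endothelial-like cells, where Mir124a-1hg and Mir124-2hg had -1.91 and -3.13, to -1.01 in OFF cone bipolar-like cluster 8. In ON cone bipolar-like cells the Snhg11 ratio was -1.78 (-1.98 to -1.58). It was -2.59, -2.22, -1.36 and -0.96 from the shallowest to the deepest class, and -0.57, -1.64, -2.04 and -2.22 from the lowest to the highest mitochondrial share. In cone-like cells the class of the third mitochondrial share had the other sign, at 1.31, and held 38 of the 43 UMIs of rd10-vehicle. In Müller glia-like cells, where Snhg11 is hardly present, the ratio was -2.19. At 1000 UMIs per cell, 36.3% of ON cone bipolar-like cells in WT had a Snhg11 UMI, 12.9% in rd10-vehicle and 16.9% in rd10-TMB. The same shares were 6.60%, 0.82% and 1.65% in rod-like cells and 96.6%, 94.9% and 92.9% in amacrine-like cluster 5. Without thinning they were 56.0%, 25.9% and 36.7% of ON cone bipolar-like cells, at median depths of 2464, 2992 and 3515 UMIs.

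Amacrine transcripts moved with these ratios. The summed level of 12 amacrine markers, among them Gad1 and Gad2, which make GABA, was 256 CPM in WT rod-like cells against 43.0 in rd10-vehicle and 45.9 in rd10-TMB, and all 12 were above 0 in WT. In rd10-vehicle 8 of them were above 0, and Gad2, Prdm13, Ebf3 and C1ql2 were at 0. In ON cone bipolar-like cells the sums were 241, 50.4 and 33.0 CPM, and in cluster 6 they were 2116, 163 and 131. Over the 11 clusters outside Müller glia-like cells, the lowest and highest sums were in OFF cone bipolar-like cluster 8 of rd10-TMB, at 11.1 CPM, and amacrine-like cluster 5 of WT, at 5089 CPM. In rod-like cells, ON cone bipolar-like cells and cluster 6, the WT library had the highest sum.

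The number of Snhg11 UMIs per amacrine marker UMI differed between clusters. In amacrine-like cluster 5 it was 1.02 for WT, 1.32 for rd10-vehicle and 0.92 for rd10-TMB, and in rod-like cells 0.27, 0.30 and 0.45. It was 10.8, 18 and 34.9 in OFF cone bipolar-like cluster 8 and 2.87, 4.00 and 7.67 in ON cone bipolar-like cells, above the amacrine-like value in each library. In cluster 6 it was 0.53 in WT, with the 2116 CPM of marker RNA, and 3.17 and 4.02 in the rd10 libraries. In the rod-like cells the ratio to marker UMIs was under that of amacrine-like cells in each library. The part of amacrine or other neuronal RNA in the lower Snhg11 of rd10 was not tested.

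**Figure D4:**
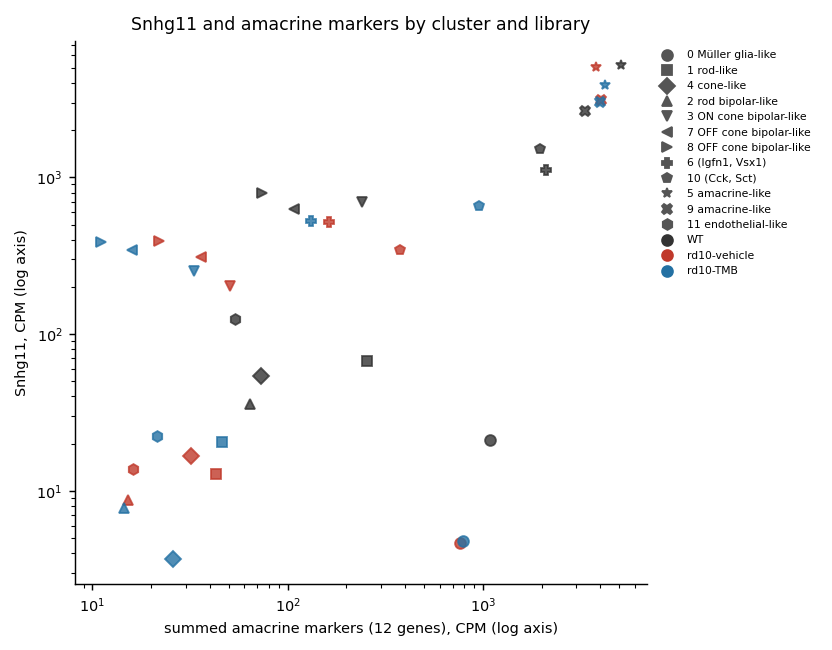
Snhg11 CPM (vertical log axis) against the summed CPM of 12 amacrine markers (horizontal log axis), with a shape per cluster and a colour per library. In each cluster outside the amacrine-like ones the WT point lies above and to the right of its rd10 points, and OFF cone bipolar-like points lie high at few marker UMIs.

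With TMB, Snhg11 showed no common direction. It was higher than in rd10-vehicle past 1.5-fold in cluster 10, at 660 against 345 CPM (log2 ratio 0.93), and in endothelial-like cells, at 22.3 against 13.9 CPM (0.68, with an interval of -0.15 to 1.52). Amacrine markers in cluster 10 summed to 952 CPM in rd10-TMB and 378 in rd10-vehicle. In cone-like cells it was lower, at 3.68 against 16.8 CPM (-2.05, -3.49 to -1.08), which rests on 8 and 43 UMIs, 39 of the latter in the 87 deepest cells. The cone bipolar-like clusters stayed within 1.5-fold, with 0.33 in ON cone bipolar-like cells and -0.03 in OFF cone bipolar-like cluster 8. Among the genes with the closest profile to Snhg11 over 30 points were Gria2 (r of 0.96), an AMPA receptor subunit, and Rab3c (0.96), a synaptic vesicle GTPase.

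Rmst, the Sox2-binding RNA, was highest, among the 12 clusters, in Müller glia-like cells and amacrine-like cluster 5, with means of 92.6 and 91.5 CPM. Amacrine-like cluster 9 was lower, at a mean of 18.1 CPM, below the 20.4 CPM of cluster 6. Müller glia-like cells had 166 CPM (152 to 180) for WT, 53.4 (50.4 to 56.5) for rd10-vehicle and 58.7 (55.1 to 62.5) for rd10-TMB, from 550, 1185 and 985 UMIs. The WT level stood apart from both rd10 levels, 3.11 times that of rd10-vehicle, with a log2 ratio of -1.64 (-1.78 to -1.49). Among all 12404 genes counted in this cluster, 8.64% were higher and 9.31% lower past 1.5-fold. The rd10-TMB level was 0.14 (0.01 to 0.26) above rd10-vehicle on the log2 scale, in a cluster where 1.1% of genes were higher and 2.2% lower past 1.5-fold. Against the WT cells with an Xist UMI and no Y-linked UMI the ratio of rd10-vehicle was -1.89.

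The gap between WT and rd10 in Rmst held in each depth class of Müller glia-like cells. WT had 197, 141, 163 and 132 CPM from the shallowest to the deepest class, rd10-vehicle 63.3, 72.3, 49.8 and 39.3 CPM, and rd10-TMB 65.4, 82.4, 66.0 and 47.3 CPM. At 1000 UMIs per cell, 14.2% of WT cells (11.4% to 17.5%) had an Rmst UMI, against 5.29% of rd10-vehicle and 5.62% of rd10-TMB cells. In rod-like cells 0.629% of WT cells had one, and 0 of the rd10 cells, which allows up to 0.615% in rd10-vehicle. Without thinning the shares in Müller glia-like cells were 55.5%, 32.6% and 37.6%, and 0.593% in rod-like cells of WT.

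Müller glia-like cells of rd10 were split by Lcn2, the lipocalin of reactive glia. In rd10-vehicle, 653 cells with an Lcn2 UMI had 35.5 CPM of Rmst and 1839 cells without one had 62.4 CPM. In rd10-TMB the levels were 38.6 CPM in 300 cells and 65.1 CPM in 1448. Cells with Lcn2 were deeper, with medians of 10153 against 8175 UMIs in rd10-vehicle. In WT, 521 cells without Lcn2 had 169 CPM, and the 9 cells with it 51.2 CPM (16.6 to 119). Neat1 was also lower in the cells with Lcn2, at 159 against 191 CPM in rd10-vehicle and 119 against 146 CPM in rd10-TMB. Meg3 was higher in them, at 257 against 217 CPM and 244 against 161 CPM.

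**Figure D5:**
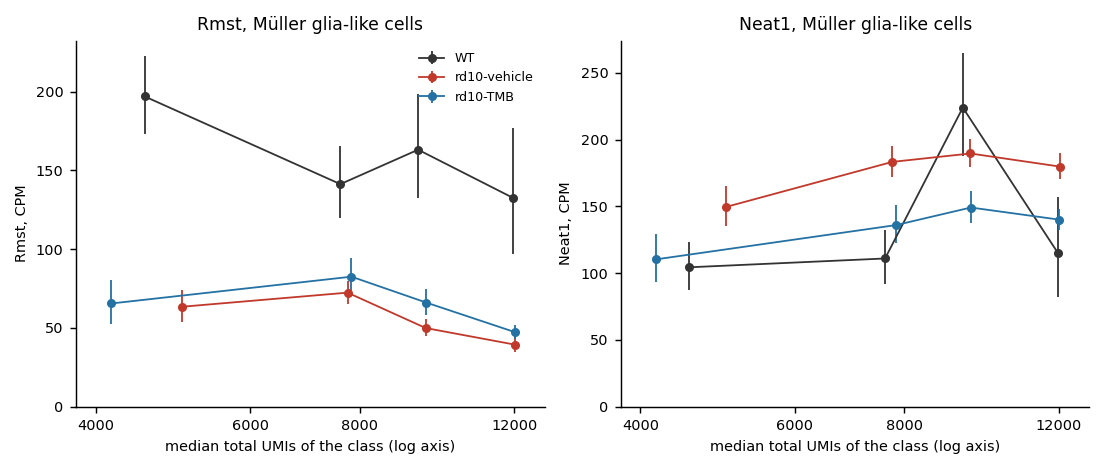
Rmst (left) and Neat1 (right) in Müller glia-like cells, in CPM (vertical axis) against the median total UMIs of 4 depth classes (horizontal log axis), with 95% counting intervals, by library. Rmst of WT lies above both rd10 libraries in each class, and Neat1 of rd10-vehicle lies above rd10-TMB in each class.

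In other clusters Rmst had fewer UMIs. Amacrine-like cluster 5 had 117 CPM for WT, 53.0 for rd10-vehicle and 104 for rd10-TMB, from 247, 8 and 19 UMIs, so the last 2 intervals overlap. Cluster 6 had 47 UMIs for WT, 2 for rd10-vehicle and 4 for rd10-TMB, in the cluster where amacrine markers summed to 2116 CPM in WT and 163 in rd10-vehicle. Astrocyte-like cells had 111, 73.9 and 74.6 CPM with overlapping intervals, and 37 ganglion cell-like cells of WT had 80.8 CPM (60.9 to 105) from 55 UMIs. The genes closest to Rmst in profile were 4930578M01Rik (r of 0.84), Ptch1 (0.82), the hedgehog receptor, and Celsr2 (0.81), an adhesion receptor, over 30 points. The flanking protein genes in Müller glia-like cells were Tmpo, with 99.1, 67.4 and 72.3 CPM, and Nedd1, with 13.3, 9.64 and 9.95 CPM. Sox2, the binding partner, had 449 CPM for WT, 397 for rd10-vehicle and 367 for rd10-TMB.

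Miat was close to the limit of detection. Only 58 cells had a UMI of it, and its UMIs numbered 67 for WT, 13 for rd10-vehicle and 20 for rd10-TMB. Of the WT UMIs, 48 were in 37 ganglion cell-like cells, at 70.5 CPM (52.0 to 93.5), and 13 in amacrine-like cluster 5. In rd10-vehicle only 3 cells were ganglion cell-like and in rd10-TMB 3, so Miat could not be compared there. No ratio of Miat met the count limits.

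Profiles of the other members were compared in the same way over 30 points. Closest to Malat1 were Msi1 (r of 0.86), an RNA-binding protein of neural progenitors and glia, Ncam1 (0.81), a cell adhesion molecule, and Eno1 (0.81), a glycolytic enzyme. Among the closest to Neat1 were Id1 (0.92), a target of BMP signals, and Rgcc (0.92). Between the members, Meg3 and Snhg11 were at an r of 0.72, Malat1 and Rmst at 0.52, and Malat1 and Neat1, which are neighbours on chromosome 19, at -0.07.

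Other long noncoding RNAs, and genes named as partners of the members, were listed to show their own values in Müller glia-like cells. Of 51 other long noncoding RNAs counted for rd10-vehicle over WT, 5 were higher and 10 lower past 1.5-fold, with a median log2 ratio of -0.19 against -0.06 over all genes, of which 17.95% passed that limit. Snhg14 had 25.9 CPM in WT and 10.7 in rd10-vehicle (log2 ratio -1.28), Snhg20 109 and 51.4 (-1.09), and Mir670hg 10.8 and 5.14 (-1.11). Mir155hg, the host of miR-155, rested on 2 UMIs in WT and 61 in rd10-vehicle (1.63, 0.27 to 5.27). For rd10-TMB over rd10-vehicle, 1 of 51 was higher, Mir670hg (0.62), and 2 were lower, Mir155hg (-0.85) and 2610307P16Rik (-0.65). Over all genes in this cluster 1.1% were higher and 2.2% lower, and the median of the list was 0.05 against -0.02.

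Of 16 paraspeckle protein genes, partners of Neat1, 0 passed 1.5-fold in either direction in Müller glia-like cells for rd10-vehicle over WT, with a median log2 ratio of -0.05, where 17.95% of all genes passed that limit. Of 18 nuclear speckle protein genes, partners of Malat1, 1 was lower: Luc7l3, a splicing factor, had 282 CPM in WT and 183 in rd10-vehicle (-0.62). Of 9 genes named as partners of Miat and Rmst, 1 was lower: Ptbp2, a neural splicing regulator, had 69.6 CPM in WT and 37.0 in rd10-vehicle (-0.91). For rd10-TMB over rd10-vehicle, 0 genes of these 3 lists passed 1.5-fold in this cluster, where 3.30% of all genes did.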

How the data were processed

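Retinas were dissociated with papain and 1 pooled 3′ droplet library was made per group. Per the labels and methods, the authors aligned reads to mm10 with Cell Ranger 6.0.1, removed doublets before deposit, kept cells with at least 500 genes, and clustered with Seurat 3.2.2 after correcting for library. Values in the deposited matrix are on a natural log scale: the log of 1 plus the UMIs of a gene per 1e+04 UMIs of its cell. The deposited cell table gives the UMI count of each cell, its library and its cluster. All 32620606 entries came back as whole UMI counts within 0.001, whose sum matched the total of the cell in 15242 of 15242 cells.

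UMIs were summed per cluster and library and scaled to CPM. Log2 ratios had a pseudocount of 1 UMI. Intervals are exact at 95% (Poisson for CPM, conditional binomial for ratios, Clopper-Pearson for shares) and cover counting error only, as UMIs of 1 library are not replicates. A count of 0 allows 3 counts. Clusters were named from marker lists. For shares, cells were thinned to 1000 UMIs. Likeness was Pearson r of log2(CPM + 1) over the 10 clusters with at least 50 cells per library, for genes of at least 20 CPM on average. Named genes were the members, the 3 most alike per member, and up to 4 per list by size; some of these are not reported here. No p-value was computed, since each group had 1 library. No doublet caller was run. The members and lists were chosen with earlier results of these data known. The WT alternative used 1750 of 4478 WT cells with Xist and no UMI of 4 Y-linked genes, while all rd10 cells were kept. Finding an Xist UMI depends on depth, so this alternative does not separate sex from depth. Ratios and intervals were tested on simulated data. Python 3.11.15, numpy 2.4.6, pandas 2.3.3, scipy 1.17.1 and matplotlib 3.10.9 were used. Sequences were read from GENCODE transcripts and RefSeq tables of GRCm38, in which 6 and, for promoters, 4 members were matched.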

Additional observations from a re-analysis of the deposited data

Results flagged for a closer look

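Values of 1 RNA passed 1.5-fold for rd10-TMB over rd10-vehicle in opposite directions in different clusters, which is why they are given here. Meg3 had a log2 ratio of 0.91 in endothelial-like cells and -0.69 in rod-like cells. Snhg11 had 0.93 in cluster 10 and 0.68 in endothelial-like cells, against -2.05 in cone-like cells, where it rested on 8 and 43 UMIs. With cells of at most 10% mitochondrial UMIs the value of Meg3 in rod-like cells was -0.14. With 1 library per group the difference was not tested.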

How the results depend on the processing

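No paired analysis was possible because each group had 1 library. Under other scalings, pseudocounts, cell filters, thinning and choices of WT cells, values past 1.5-fold kept their direction wherever they still met the count limits. For rd10-vehicle over WT, 143 of 143 such alternative values kept the sign and 138 stayed past 1.5-fold. For rd10-TMB over rd10-vehicle 38 of 38 and 36 did. Values that fell under the count limits in an alternative are not among these, so their direction there is not known. Classes of total UMIs and mitochondrial share are not among these alternatives, and Meg3 and Snhg11 in cone-like cells turned their direction in some classes. Of the values within 1.5-fold, 14 of 213 and 13 of 241 had the other sign. The count of higher values for rd10-vehicle over WT was 0, and 1 with the mean over cells, with cells of at least 1000 genes, or with a minimum of 20 UMIs. For rd10-TMB over rd10-vehicle, the 3 higher values became 0 at a 2-fold limit. The 2 lower values became 1 with cells of at least 1000 genes, without the 5% deepest cells or at a 2-fold limit, and 0 with a mitochondrial share of at most 10% or a minimum of 200 UMIs. For rd10-TMB over WT, the 1 higher value became 0 with cells of at least 1000 genes, thinning, WT restricted to Xist-positive cells lacking Y-linked UMIs, a 2-fold limit or a minimum of 200 UMIs, and 2 with a minimum of 20 UMIs. The 19 lower values became 11 with that WT restriction. The cause was not tested. Depth limits Miat and the photoreceptor values of Snhg11 and Rmst.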
